A study of Mus musculus with 12 samples.

Results

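The genes described here are 10 regulators of the actin that builds the phagocytic cup, chosen by name: Rac1, Rac2, Cdc42, Elmo1, Dock1, Dock2, Vav1, Was, Wasf2 and Coro1a. They are 10 of the 23845 genes in the deposited tables, and all 10 were among the 15295 genes with enough counts to be tested. RNA was sequenced from microglia of C57BL6/J mice aged 3 to 4 months, in 4 groups of 3 libraries, each library from 1 animal. CPEB1-KO-LPS mice carried a knockout of CPEB1, a protein that binds mRNAs and controls their polyadenylation and translation, and had received lipopolysaccharide (LPS), a bacterial cell wall component, 24 h before the cells were taken. CPEB1-KO mice had the knockout and no LPS, WT-LPS mice were wild type and given LPS for 24 h, and WT mice were wild type without LPS. All libraries were made from poly(A) RNA of cells enriched on a Percoll density gradient, which sorts cells by buoyancy and not by a surface marker. The labels give neither the knockout allele nor the LPS dose.

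A phagocyte takes in a particle by pushing a sheet of actin-rich membrane around it. Receptors recruit exchange factors, which load GTP onto small GTPases such as Rac and Cdc42. Active Rac then switches on the WAVE complex and active Cdc42 switches on WASP, and both feed the Arp2/3 complex, which branches new actin filaments off old ones. Microglia use this machinery on bacteria, dying neurons and synapses. Of the 10 genes, Rac2, Dock2, Vav1, Was and Coro1a are known as genes of the blood lineage, to which microglia belong, while Rac1, Cdc42, Elmo1, Dock1 and Wasf2 are active in many cell types.

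The libraries held 5.02 to 13.5 M expected counts, and a member had 109 to 5561 expected counts in a library. Transcripts of other cells were present throughout: 12 neuron markers summed to between 1849 and 6369 TPM, RSEM's abundance unit corrected for transcript length and depth, and 10 markers of homeostatic microglia to between 489 and 5358 TPM. The 8 pan-leukocyte genes summed to 694 to 1674 TPM in CPEB1-KO-LPS, 592 to 1144 TPM in CPEB1-KO, 628 to 2238 TPM in WT-LPS and 1251 to 1559 TPM in WT. A library stood apart within each LPS group. WT-LPS replicate 1 had the lowest pan-leukocyte sum and the highest neuron sum of its group, and CPEB1-KO-LPS replicate 3 had the reverse. Markers of red blood cells summed to 7051 to 61140 TPM in CPEB1-KO-LPS, highest in replicate 3, to 27880 to 37850 TPM in CPEB1-KO, to 6544 to 10890 TPM in WT-LPS and to 41660 to 66990 TPM in WT. The 8 monocyte markers summed to 103 to 167 TPM in CPEB1-KO-LPS and to 260.2 to 530 TPM in WT-LPS, these libraries included. Whether the labels of the pair of libraries were exchanged was not tested, and both were kept as labelled. Because TPM is a share of each library, tests were run on counts with TMM normalisation, which scales libraries by a trimmed mean, and "adjusted p" below is from edgeR's quasi-likelihood test with Benjamini-Hochberg adjustment over all genes tested. Cpeb1 itself averaged 33.1 ± 8.37 TPM in CPEB1-KO-LPS, 21.8 ± 4.42 in CPEB1-KO, 36.4 ± 10.98 in WT-LPS and 26.2 ± 14.9 in WT (SD, n = 3 each), and did not pass between CPEB1-KO and WT (log2 fold change −0.58 ± 0.31 (SE), adjusted p = 0.334). The knockout libraries therefore still held Cpeb1 transcript, and a value per gene does not show which exons it came from.

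Levels spanned a wide range. Averaged over the 12 libraries, Cdc42 was the most abundant member at 385 ± 57.5 TPM (SD), followed by Rac1 at 256 ± 30.7 TPM and Coro1a at 236 ± 56.2 TPM, of which Rac1 and Coro1a lay within each other's spread. Vav1 (47.8 ± 33.1 TPM), Elmo1 (43.2 ± 8.29), Rac2 (32.8 ± 16.4), Wasf2 (29.9 ± 27.6) and Was (25.0 ± 13.9) formed a middle tier whose neighbours did not differ beyond their spread. The large exchange factors Dock2 (11.4 ± 6.77 TPM) and Dock1 (6.92 ± 2.02 TPM) were the least abundant. Rac1 varied least between libraries, with a highest value 1.5 times the lowest, and Vav1 varied most, with a highest value 7.99 times the lowest.

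**Figure D1:**
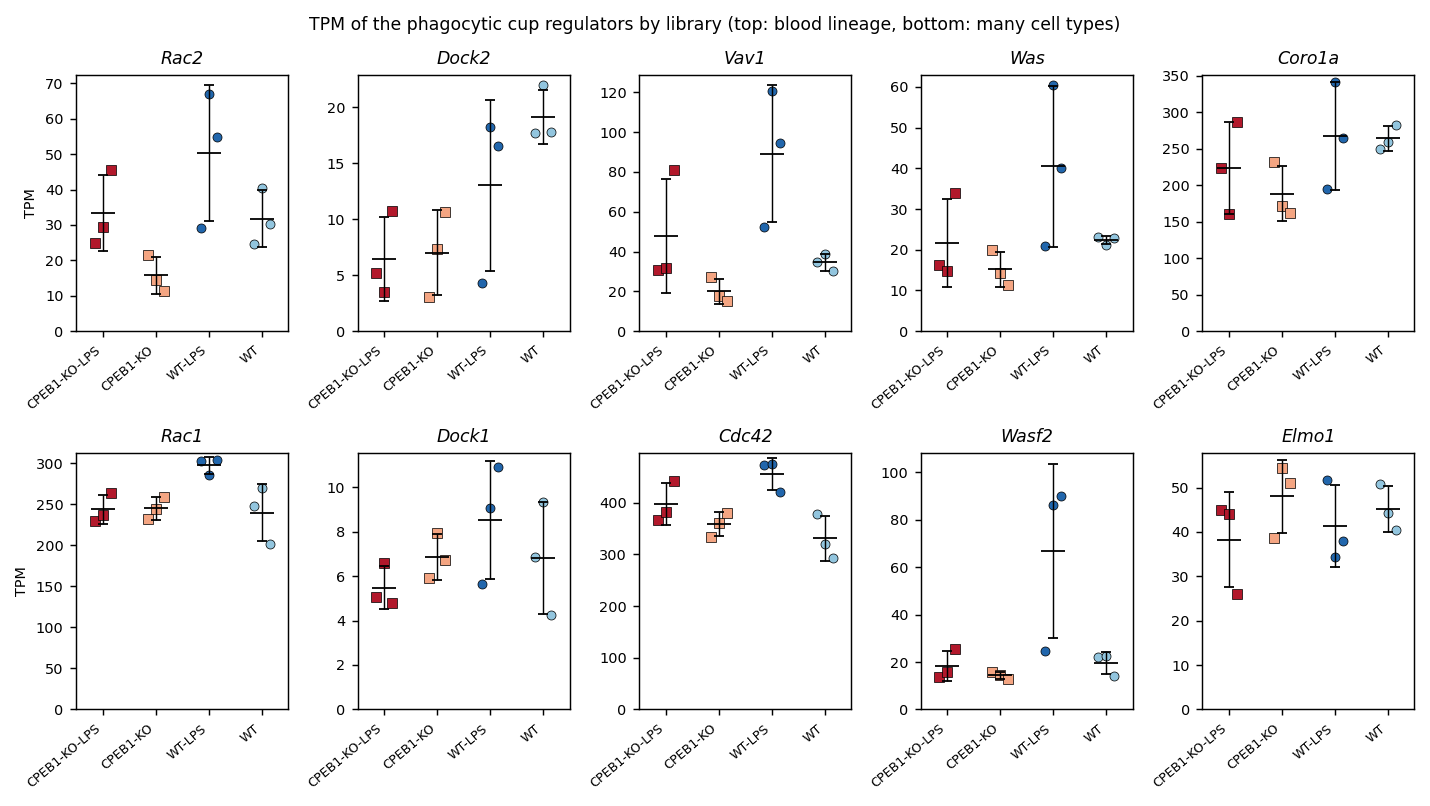
Level of each member in TPM, 1 point per library, with replicates 1 to 3 from left to right in each group and a bar at the group mean ± SD. The Vav1 and Wasf2 points of WT-LPS replicates 2 and 3 stand above all other libraries, and the highest value is 1.5 times the lowest for Rac1 and 1.62 times for Cdc42.

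Among the GTPases, Rac1, which drives lamellipodia in most cells, ranged over the groups from 202 TPM in a WT library to 303 TPM in a WT-LPS library. Cdc42, which extends the rim of the cup and activates WASP, ranged from 294 to 475 TPM. In TPM all 3 WT-LPS libraries lay above all 3 WT libraries for both genes, which held for 27.4% of all genes, but on the count scale their fold changes were near 0, at log2 −0.07 ± 0.24 for Rac1 (adjusted p = 0.851) and 0.06 ± 0.25 for Cdc42. The median of all genes stood at 0.28 on the log2(TPM + 1) scale in this comparison and at −0.03 in the count fit. The 3 CPEB1-KO-LPS libraries were below the 3 WT-LPS libraries for Rac1 in TPM, as for 8.75% of all genes, but overlapped with them in TMM-scaled counts. Neither gene passed in any comparison.

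Rac2 is the Rac of blood cells and also a subunit of the phagocyte NADPH oxidase. It was at 24.9, 29.5 and 45.5 TPM in the CPEB1-KO-LPS libraries and at 21.4, 14.5 and 11.3 TPM in the CPEB1-KO libraries. It was at 29.2, 66.9 and 54.8 TPM in WT-LPS and at 24.7, 40.5 and 30.2 TPM in WT. Every CPEB1-KO-LPS library was above every CPEB1-KO library, which held for 16.2% of all genes, whereas WT-LPS and WT overlapped, and every CPEB1-KO library was below every WT library, as for 5.09% of all genes. The log2 fold change was 1.16 ± 0.42 (SE) for CPEB1-KO-LPS against CPEB1-KO (adjusted p = 0.129) and 0.28 ± 0.41 for WT-LPS against WT (adjusted p = 0.638), and neither passed.

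Vav1 is an exchange factor of blood cells that is switched on by tyrosine kinases below Fc receptors and integrins (chr17:57279100-57328031, plus strand, GRCm38). It was at 30.9, 31.5 and 80.8 TPM in CPEB1-KO-LPS and at 27.1, 17.8 and 15.1 TPM in CPEB1-KO. It was at 52.5, 121 and 94.3 TPM in WT-LPS and at 34.7, 38.6 and 30.3 TPM in WT. In TPM every LPS library was above every untreated library in both genotypes, which held for 16.2% of all genes in CPEB1-KO-LPS against CPEB1-KO and for 27.4% in WT-LPS against WT. In TMM-scaled counts this held in CPEB1-KO-LPS against CPEB1-KO, as for 18.9% of all genes, but WT-LPS and WT overlapped. Over both genotypes together Vav1 rose 2.28-fold with LPS, a log2 fold change of 1.19 ± 0.32 (SE, adjusted p = 0.0160, 6 libraries against 6). Its adjusted p stayed between 0.00716 and 0.0496 when each of the 12 libraries was left out in turn. Within a genotype it did not pass, at 1.36 ± 0.47 for CPEB1-KO-LPS against CPEB1-KO (adjusted p = 0.110) and 1.01 ± 0.46 for WT-LPS against WT (adjusted p = 0.118). Without CPEB1-KO-LPS replicate 3, its highest knockout library, the value for CPEB1-KO-LPS against CPEB1-KO was 0.56.

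Elmo1 is the scaffold that pairs with Dock1 into a Rac exchange factor below receptors for apoptotic cells. It was at 44.9, 44.0 and 26.0 TPM in CPEB1-KO-LPS and at 38.7, 54.4 and 51.1 TPM in CPEB1-KO. It was at 51.8, 34.3 and 37.9 TPM in WT-LPS and at 50.9, 44.3 and 40.6 TPM in WT. The TPM values overlapped in every comparison. In TMM-scaled counts every WT-LPS library was below every WT library, as for 20.1% of all genes, and the other comparisons overlapped. On the count scale Elmo1 fell with LPS over both genotypes by 0.41 ± 0.14 on the log2 scale (adjusted p = 0.0487). This call was lost in 9 of the 12 fits that left out a library, with an adjusted p of up to 0.113, and in limma on TPM (adjusted p = 0.344). The call was also lost with no filter, with a replicate block and without the pair WT-LPS replicate 1 and CPEB1-KO-LPS replicate 3. The Elmo1 partner Dock1 ranged from 4.26 TPM in a WT library to 10.9 TPM in a WT-LPS library, overlapped in every comparison and did not pass in any.

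Dock2 is the Rac exchange factor that blood cells use in migration. It was at 5.2, 3.52 and 10.7 TPM in CPEB1-KO-LPS and at 3.04, 7.3 and 10.6 TPM in CPEB1-KO. It was at 4.27, 18.3 and 16.5 TPM in WT-LPS and at 17.7, 21.9 and 17.7 TPM in WT. The WT values lay close together, every CPEB1-KO library was below every WT library, as for 5.09% of all genes, WT-LPS and WT overlapped, and WT-LPS replicate 1 lay near the knockout libraries. The log2 fold change for WT-LPS against WT was −0.92 ± 0.57 (SE, adjusted p = 0.247) and that for CPEB1-KO-LPS against CPEB1-KO was 0.01 ± 0.58, and neither passed.

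Was encodes WASP, the Cdc42 effector that is mutated in Wiskott-Aldrich syndrome. It was at 16.2, 14.8 and 34.0 TPM in CPEB1-KO-LPS and at 19.8, 14.3 and 11.5 TPM in CPEB1-KO. It was at 21.0, 60.6 and 40.02 TPM in WT-LPS and at 23.0, 21.2 and 23.0 TPM in WT. The LPS groups overlapped with their untreated groups, and the highest value of each LPS group came from a library with a high pan-leukocyte sum. The fold changes with LPS did not pass, at log2 0.61 ± 0.45 (adjusted p = 0.486) for CPEB1-KO-LPS against CPEB1-KO and 0.53 ± 0.44 (adjusted p = 0.392) for WT-LPS against WT.

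Wasf2 encodes WAVE2, the Rac effector that sits in the WAVE complex (chr4:133130505-133199756, plus strand, GRCm38). It was at 13.7, 16.0 and 25.5 TPM in CPEB1-KO-LPS and at 15.9, 14.4 and 13.04 TPM in CPEB1-KO. It was at 24.6, 86.1 and 90.2 TPM in WT-LPS and at 22.2, 22.6 and 14.3 TPM in WT. WT-LPS replicates 2 and 3 were far above all other libraries, while the CPEB1-KO-LPS libraries overlapped with the CPEB1-KO libraries. Wasf2 rose 2.65-fold in WT-LPS against WT, a log2 fold change of 1.41 ± 0.45 (SE, adjusted p = 0.0339). The call was lost without WT-LPS replicate 2, WT-LPS replicate 3, WT replicate 1 or WT replicate 3 (adjusted p up to 0.122) and in a fit of these groups alone (adjusted p = 0.0504). In TMM-scaled counts WT-LPS and WT overlapped for Wasf2, and 0 of 10 members stood higher without overlap, beside 17.5% of all genes. In CPEB1-KO-LPS against CPEB1-KO the log2 fold change was 0.43 ± 0.44 (adjusted p = 0.643). Markers of some other cells also rose in WT-LPS against WT, while those of others fell. Called lower were 6 of 6 choroid plexus, 4 of 4 red blood cell and 3 of 4 B cell markers. So were 4 of 9 T and NK cell, 4 of 7 border macrophage and 8 of 10 homeostatic microglia markers. Of 8 monocyte markers 5 were called higher (median 1.79), with sums of 260.2 to 530 TPM in WT-LPS and 47.9 to 68.7 TPM in WT. Of 8 endothelial and mural markers 5 were called higher and 1 lower (median 1.73), with sums of 98.7 to 259.9 TPM in WT-LPS and 36.5 to 54.7 TPM in WT. The part of these other cells in the Wasf2 value was not tested.

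Coro1a encodes coronin 1A, an actin-binding protein of leukocytes that coats the forming phagosome. It was at 224, 161 and 286 TPM in CPEB1-KO-LPS and at 232, 172 and 162 TPM in CPEB1-KO. It was at 195, 342 and 265 TPM in WT-LPS and at 249.7, 259.7 and 283 TPM in WT. The LPS groups overlapped with their untreated groups in both genotypes, and no fold change with LPS passed (log2 0.32 ± 0.32 in CPEB1-KO-LPS against CPEB1-KO and −0.33 ± 0.32 in WT-LPS against WT).

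Few of the 10 genes passed the test with LPS. In WT-LPS against WT, 1 of 10 members passed an adjusted p of 0.05, Wasf2, which rose, beside 27.4% of all genes tested (12.4% called higher). In CPEB1-KO-LPS against CPEB1-KO, 0 of 10 passed in edgeR beside 6.22% of all genes. At an unadjusted p under 0.05 there were 2 members, beside 20.5% of all genes. DESeq2 called 1 member (Vav1, beside 10.8% of all genes) and limma called 0. Over both genotypes 2 of 10 passed, Vav1 higher and Elmo1 lower, beside 25.7% of all genes (13.2% higher and 12.5% lower). The members' median log2 fold change was 0.28 in CPEB1-KO-LPS against CPEB1-KO and −0.00 in WT-LPS against WT. Pan-leukocyte genes, none of which was called in either comparison, had a median of 0.63 in CPEB1-KO-LPS against CPEB1-KO and 0.37 in WT-LPS against WT, and myeloid genes had medians of 0.03 and −0.41. In these bulk samples fewer cells of a type and less RNA per cell cannot be told apart. With the neuron marker level as a covariate, a fit added after seeing the data, Rac2, Vav1, Was and Wasf2 passed in WT-LPS against WT (30.2% of all genes) and Rac2 in CPEB1-KO-LPS against CPEB1-KO (8.95% of all genes).

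**Figure D2:**
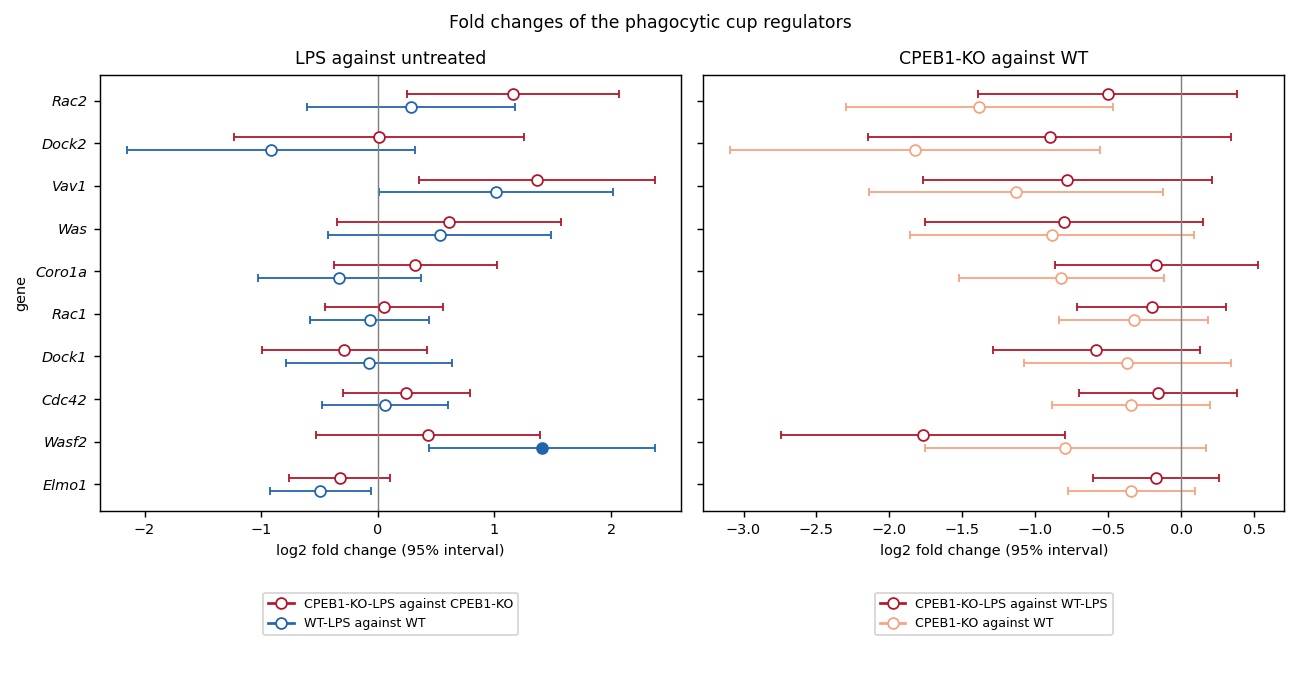
Log2 fold change of each member with its 95% interval from the edgeR fit, for the LPS comparisons and the genotype comparisons; a filled circle marks an adjusted p under 0.05. Wasf2 in WT-LPS against WT is the filled circle, at 1.41, and every member lies left of 0 in both genotype comparisons.

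Whether the genotypes answered LPS differently was tested as the interaction. No member passed in edgeR (0 of 10, beside 0.00654% of all genes). At an unadjusted p under 0.05 there were 0 members, beside 15.5% of all genes. DESeq2 called 0 members, beside 301 of 15295 genes, and limma called 0, beside 2 of 15295. For Wasf2 the difference of the responses was −0.98 ± 0.63 on the log2 scale (SE, 95% interval −2.33 to 0.38, adjusted p = 0.472). The call in WT and its absence in the knockout are therefore not shown to differ.

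Without LPS, every member had a negative log2 fold change in CPEB1-KO against WT, where 52.5% of all genes did, although Rac1, Cdc42, Elmo1 and Dock1 turned positive on the log2(TPM + 1) scale, where the median of all genes stood at 0.26, against −0.03 in the count fit. The median was −1.13 over the 5 blood-lineage genes and −0.34 over the 5 genes of many cell types, among which Wasf2 stood at −0.79 ± 0.45, and the difference between these lists was not tested. Dock2 stood at −1.83 ± 0.59 (SE, adjusted p = 0.183), Rac2 at −1.38 ± 0.42 (0.173), Vav1 at −1.13 ± 0.47 (0.231), Was at −0.88 ± 0.45 (0.308) and Coro1a at −0.82 ± 0.33 (0.221). Each of these 5 genes was lower in all 3 CPEB1-KO libraries than in all 3 WT libraries in TPM, beside 5.09% of all genes, and none of the other 5 genes was. In TMM-scaled counts 7 of 10 members were lower without overlap, these 5 and also Cdc42 and Wasf2, beside 13.9% of all genes. None of the 10 passed in edgeR, beside 0.0327% of all genes. At an unadjusted p under 0.05 there were 4 members, beside 18.6% of all genes. DESeq2 called 2 (Rac2 and Dock2, beside 3.39% of all genes) and limma called 0. Without WT replicate 1, Rac2 passed (adjusted p = 0.0463), and so did 1292 of all genes without it, against 5 with it.

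Marker lists were read in the same comparison, and no pan-leukocyte, myeloid or neuron marker was called in edgeR. Of 10 homeostatic microglia markers 1 was called lower, beside 0.0327% of all genes, and 0 were positive (median −1.12). Pan-leukocyte genes had a median log2 fold change of −0.91 and myeloid genes of −1.24 in CPEB1-KO against WT, all 8 and all 10 of them negative, and 4 of the 8 and 9 of the 10 were lower in all 3 CPEB1-KO libraries than in all 3 WT libraries in TPM, while neuron markers had a median of 0.72. The neuron sum was 4351 to 5667 TPM in CPEB1-KO and 1849 to 4190 TPM in WT. With the neuron marker level as a covariate no member passed. The values for Dock2 (−0.62), Elmo1 (−0.45), Rac2 (−0.31), Vav1 (−0.19), Coro1a (−0.12), Rac1 (−0.052) and Cdc42 (−0.026) stayed negative, and those for Was, Wasf2 and Dock1 turned to 0.03, 0.08 and 0.13. The part of the makeup of the samples in the lower values was not tested.

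The promoters of 3 of these blood-lineage genes are shown because each was lower in all 3 CPEB1-KO libraries than in all 3 WT libraries in TPM. Another reason is that GAGGAA, the core of sites bound by the myeloid factor PU.1, lies close to their start. Within CPEB1-KO the 3 genes did not run together. Dock2 was lowest in replicate 1 (3.04 TPM), where Vav1 (27.1 TPM) and Was (19.8 TPM) were highest. The windows run from 250 bases before to 50 bases after the RefSeq start on GRCm38.p6, 5′ to 3′ on the strand of the gene, with GAGGAA or its reverse complement TTCCTC in capitals. The Vav1 window is chr17:57278850-57279149 on the plus strand, the Dock2 window is chr11:34783856-34784155 on the minus strand and the Was window is chrX:8090442-8090741 on the minus strand.
Vav1: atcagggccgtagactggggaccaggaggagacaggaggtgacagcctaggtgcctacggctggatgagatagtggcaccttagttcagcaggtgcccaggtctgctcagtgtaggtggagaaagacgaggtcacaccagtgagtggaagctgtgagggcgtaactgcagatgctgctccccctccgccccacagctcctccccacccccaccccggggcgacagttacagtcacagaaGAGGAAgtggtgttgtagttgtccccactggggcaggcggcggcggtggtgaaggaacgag
Dock2: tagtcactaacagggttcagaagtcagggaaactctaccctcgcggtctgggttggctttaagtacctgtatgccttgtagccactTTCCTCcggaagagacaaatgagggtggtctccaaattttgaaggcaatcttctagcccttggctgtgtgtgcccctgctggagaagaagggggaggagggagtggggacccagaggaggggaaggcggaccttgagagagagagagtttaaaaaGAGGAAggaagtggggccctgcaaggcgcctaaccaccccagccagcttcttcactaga
Was: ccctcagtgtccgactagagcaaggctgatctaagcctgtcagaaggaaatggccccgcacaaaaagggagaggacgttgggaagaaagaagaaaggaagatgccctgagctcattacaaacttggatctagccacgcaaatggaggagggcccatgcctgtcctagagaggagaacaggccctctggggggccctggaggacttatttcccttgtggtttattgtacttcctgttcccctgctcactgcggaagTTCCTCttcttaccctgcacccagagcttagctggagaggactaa
In Vav1 the motif began 11 bases before the start, in Dock2 164 bases before it in reverse and 9 bases before it forward, and in Was 5 bases after it in reverse. RefSeq windows matched 8 of the 10 members, and the motif was found in 5 of those 8 genes, also in Dock1 and Elmo1. In Dock1, a gene of many cell types, it began 7 bases before the start in reverse. In 1 of the 2 Elmo1 windows it began 28 and 38 bases after the start. It was not found in Coro1a, Cdc42 or Wasf2. On either strand 28.3% of 32851 promoter windows of this length held it, beside 5 of the 10 windows of members. A match is a description of the sequence, not a bound site.

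After LPS, all 10 members again had negative log2 fold changes in CPEB1-KO-LPS against WT-LPS, with a median of −0.54, where 44.4% of all genes did. Wasf2 had the largest difference, −1.77 ± 0.45 (SE, unadjusted p = 0.00171, adjusted p = 0.361), at 18.4 ± 6.29 TPM in CPEB1-KO-LPS and 67.0 ± 36.7 TPM in WT-LPS (SD, n = 3 each). Dock2 stood at −0.90 ± 0.58, Was at −0.80 ± 0.44, Vav1 at −0.78 ± 0.46, Dock1 at −0.58 ± 0.33 and Rac2 at −0.50 ± 0.41. Rac1, Elmo1, Coro1a and Cdc42 lay between −0.20 and −0.16. None of the 10 passed in edgeR, beside 0.00654% of all genes. At an unadjusted p under 0.05 there was 1 member, beside 10.8% of all genes. DESeq2 called 1 (Wasf2, beside 0.588% of all genes) and limma called 0. Marker lists had medians of −1.55 for monocytes and −1.43 for endothelial and mural cells, with 0 of 8 positive in each, −0.74 for astrocytes, −0.68 for pan-leukocyte genes and 1.88 for red blood cells, and their part in the lower values was not tested.

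The counts changed with the pair of libraries that stood apart. Without WT-LPS replicate 1 and CPEB1-KO-LPS replicate 3, a choice made after seeing the data, Rac2, Dock2, Vav1, Was and Wasf2 passed, all lower in CPEB1-KO-LPS, beside 11.8% of all genes. The pan-leukocyte sums of the libraries that remained were 778 and 694 TPM in CPEB1-KO-LPS and 2238 and 1607 TPM in WT-LPS, so the same choice widened the gap in leukocyte transcripts. Averaged over both LPS states, 0 of 10 members passed between the genotypes in edgeR, beside 0.111% of all genes. At an unadjusted p under 0.05 there were 5 members, beside 11.6% of all genes. DESeq2 called 1 (Wasf2, beside 0.706% of all genes) and limma called 0. The largest averages were −1.36 ± 0.42 for Dock2 (adjusted p = 0.387) and −1.29 ± 0.34 for Wasf2 (adjusted p = 0.315). Without the same pair of libraries 6 members passed, the 5 above and Coro1a, beside 9% of all genes. The LPS and genotype comparisons share libraries (WT serves both WT-LPS and CPEB1-KO), so their values are not independent.

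Members were also set against the leukocyte transcripts of the same library. These ratios, in TPM per 1000 TPM of the 8 pan-leukocyte genes, were chosen after the values were seen and carry no test, and the sum itself may change with LPS. Vav1 was at 39.8, 45.4 and 48.2 in CPEB1-KO-LPS and at 23.7, 22.8 and 25.5 in CPEB1-KO. It was at 83.7, 53.9 and 58.7 in WT-LPS and at 27.7, 24.7 and 23.5 in WT. Vav1 thus stood higher in every LPS library than in every untreated one, and CPEB1-KO and WT overlapped. Wasf2 was at 17.5, 23.0 and 15.3 in CPEB1-KO-LPS and at 13.9, 18.4 and 22.02 in CPEB1-KO. It was at 39.2, 38.4 and 56.1 in WT-LPS and at 17.7, 14.5 and 11.1 in WT. The 3 WT-LPS libraries stood above all others by this ratio, and the remaining groups overlapped. Wasf2 is also active in other cells, so the ratio depends on the low pan-leukocyte sum of WT-LPS replicate 1, where the ratio of Rac1 was 482, against 128 and 189 in replicates 2 and 3, and that of Elmo1 was 82.4, against 15.3 and 23.6. The ratio of group means was 1.03 in CPEB1-KO-LPS against CPEB1-KO and 3.09 in WT-LPS against WT. Rac2 was 1.81 times as high in CPEB1-KO-LPS as in CPEB1-KO and 1.6 times as high in WT-LPS as in WT, without overlap in either. Was was 1.14 and 1.72 times as high in the same pairs, also without overlap, while Coro1a overlapped in all 4 comparisons. By the same ratio Dock2 was lower without overlap in WT-LPS against WT (0.60 times) and Rac2 in CPEB1-KO against WT (0.81 times). Rac1 was higher without overlap in CPEB1-KO against WT (1.81 times), where the pan-leukocyte sum was lower in every CPEB1-KO library. In CPEB1-KO-LPS against WT-LPS, Wasf2 (0.42 times), Vav1 (0.68), Dock2 (0.72) and Was (0.73) were lower without overlap. The share of all genes that separate by this ratio was not computed, so how common such separations are is not known.

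**Figure D3:**
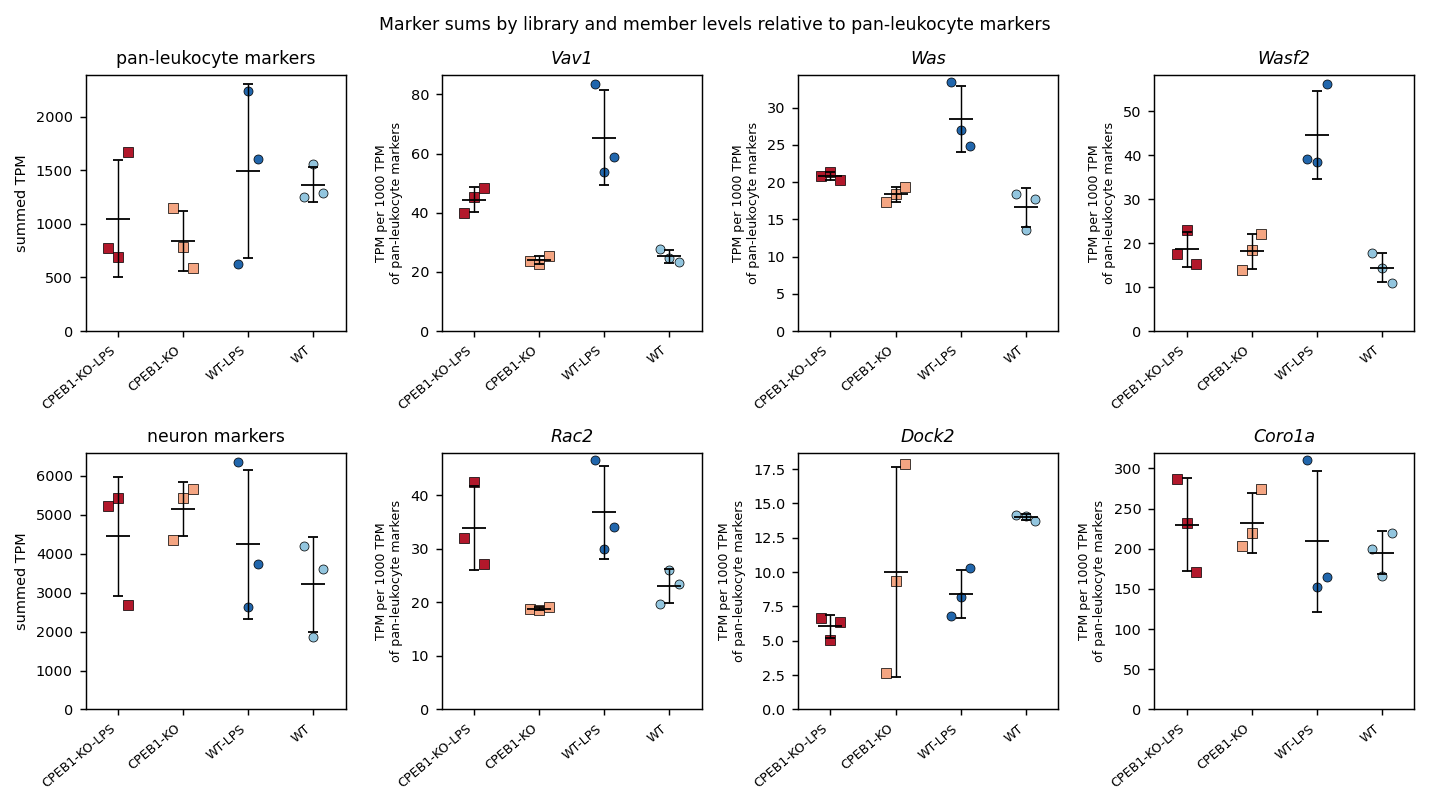
Summed TPM of the pan-leukocyte and neuron markers (left panels) and level of the plotted members in TPM per 1000 TPM of the 8 pan-leukocyte genes, 1 point per library, with the group mean ± SD. WT-LPS stands apart from the other groups for Wasf2, and both LPS groups stand above both untreated groups for Vav1.

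The shares of paralogs within a library do not depend on the scaling between libraries. They can change with the mix of cells, since each sets a blood-lineage gene against a gene of many cell types. The pan-leukocyte sum was 592 to 1144 TPM in CPEB1-KO and 1251 to 1559 TPM in WT. The part of the cell mix in the shares was not tested, and no background over other pairs of genes was computed. Rac2 made up 9.81, 11.1 and 14.7% of Rac1 plus Rac2 TPM in CPEB1-KO-LPS and 8.46, 5.60 and 4.18% in CPEB1-KO. It made up 8.81, 19.0 and 15.3% in WT-LPS and 9.08, 13.1 and 13.03% in WT. Every CPEB1-KO library was below every WT library and below every CPEB1-KO-LPS library. Dock2 made up 50.6, 34.9 and 69.2% of Dock1 plus Dock2 TPM in CPEB1-KO-LPS and 34.0, 47.9 and 61.2% in CPEB1-KO. It made up 43.0, 66.8 and 60.3% in WT-LPS and 72.1, 70.2 and 80.6% in WT. The WT libraries had the highest shares of all, above every WT-LPS and every CPEB1-KO library. Reads shared between near-identical stretches of Rac1 and Rac2 could have been split by the counting.

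**Figure D4:**
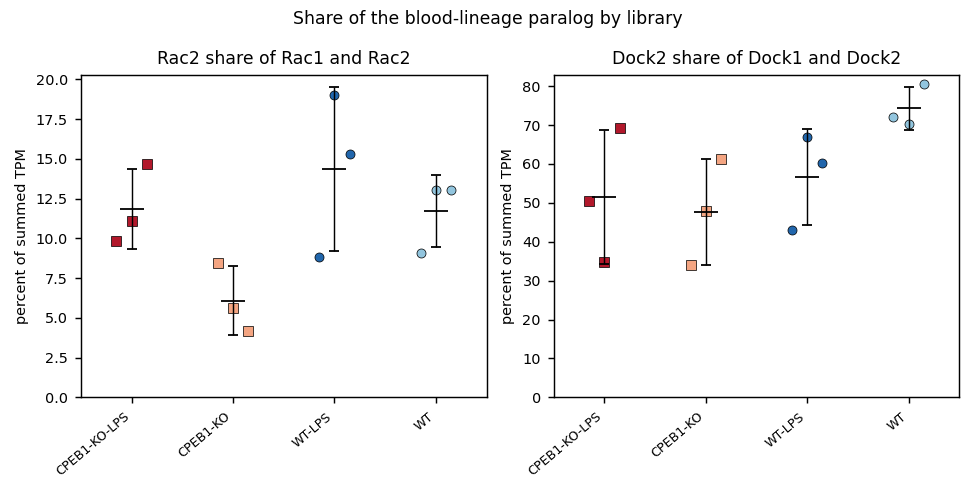
Rac2 as a percent of Rac1 plus Rac2 TPM and Dock2 as a percent of Dock1 plus Dock2 TPM, 1 point per library with the group mean ± SD. CPEB1-KO holds the lowest Rac2 shares and WT the highest Dock2 shares.

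The genes around the members in the pathway were read from 5 lists, of which Lcp1 is also among the pan-leukocyte genes. In WT-LPS against WT, where 27.4% of all genes were called and 12.4% called higher, tyrosine kinases and adaptors close to the receptors had 2 of 19 higher and 2 lower: Fgr, a Src family kinase, rose by 3.81 ± 0.48 on the log2 scale (27.9 ± 8.94 TPM in WT-LPS and 1.58 ± 1.07 in WT) and the adaptor Lcp2, which binds Vav1, by 1.58 ± 0.43, while the lipid phosphatase gene Inppl1 fell by 0.83 ± 0.25. The Arp2/3 complex had 1 of 9 higher, Actr3 (1.07 ± 0.28), and the partners of WASP and WAVE had 2 of 13 higher, Cyfip2 and Wasl, and 1 lower, Abi3 (−1.72 ± 0.40), a WAVE complex subunit typical of microglia. Coronins and actin turnover genes had 2 of 18 higher, Coro1c and Coro2a, and 3 lower, among them Tmsb4x, the actin monomer buffer thymosin beta 4. The myosins of the cup had 1 of 7 higher, Myo5a, and 2 lower, Myo1f and Myo9b.

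In CPEB1-KO-LPS against CPEB1-KO Fgr (3.22 ± 0.46) and Lcp2 (1.82 ± 0.44) also passed, 2 of 19 with none lower, beside 6.22% of all genes. Vasp, an actin filament elongator, rose by 1.69 ± 0.44, while Myo1f fell by 1.45. The Arp2/3 list had 0 of 9 in edgeR (4 at an unadjusted p under 0.05, 1 called by DESeq2, 0 by limma), although all 9 were positive, and the WASP and WAVE list had 0 of 13 (1, 0 and 0 by the same measures). Of all genes, 20.5% were at an unadjusted p under 0.05 in this comparison, and DESeq2 called 10.8%. Of the 66 genes tested in the 5 lists, 0 passed in edgeR between the genotypes, either with or without LPS. In CPEB1-KO-LPS against WT-LPS 4 were at an unadjusted p under 0.05, beside 10.8% of all genes. DESeq2 called 0 there, beside 0.588% of all genes, and limma called 0. In CPEB1-KO against WT 19 were at an unadjusted p under 0.05, beside 18.6% of all genes. DESeq2 called 3 there, beside 3.39% of all genes, and limma called 0. Over both genotypes Arp2/3 genes had 3 of 9 higher with LPS, Actr3, Arpc2 and Arpc1b, and none lower, beside 13.2% of all genes called higher.

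**Figure D5:**
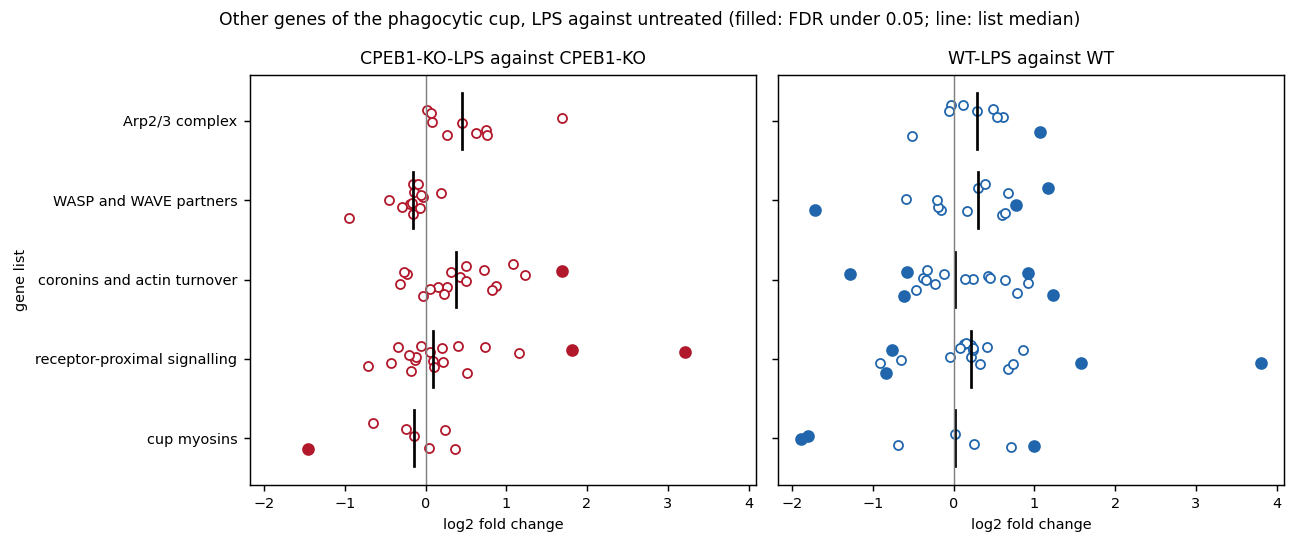
Log2 fold changes of the genes in each of the pathway lists, with 1 point per gene, filled where the adjusted p was under 0.05, and a line at the list median. The receptor-proximal list holds the largest positive values in both LPS comparisons, led by Fgr.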

How the data were processed

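Gene-level values of 12 poly(A) RNA-seq libraries were analysed, 3 in each of 4 groups taken from the sample titles. The authors deposited a pair of tables of the whole series, expected counts and TPM; cutadapt, RSEM and mm10 are listed in the submitters' processing notes. No version, aligner or annotation is given in the sources used here. Expected counts, of which 3.69 to 4.66% per library were not whole, were rounded. Genes were kept with edgeR's filterByExpr by group, which left 15295 of 23845 genes, and 27 symbols that a spreadsheet had turned into dates were restored. Libraries were scaled by TMM and fitted with edgeR 4.0.16 in R 4.3.3 (glmQLFit and glmQLFTest) as 1 model of the 4 groups, or as genotype plus LPS for effects averaged over both, with a threshold of 0.05 on the Benjamini-Hochberg adjusted p. TPM deposited by the authors served for levels, ratios and overlap, and for limma 3.58.1 on log2(TPM + 1). Alternatives were DESeq2 1.42.0, other size factors, filters and pseudocounts, a replicate block, the pair of groups compared alone and each library left out. The fit was tested on simulated data. The text names every member, Cpeb1 and, per pathway list and comparison, up to 3 genes past the threshold with the smallest p. Some genes of the pathway are not reported here, and the list counts leave them out. The members and lists were chosen with earlier results of these data known. Promoter sequences are from RefSeq on GRCm38.p6. Libraries held 5.02 to 13.5 M expected counts. Each library is 1 animal, per the labels; counts per gene do not separate strands, isoforms or exons.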

Additional observations from a re-analysis of the deposited data

How the results depend on the processing

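Values for single members were counted under other settings for every member in the comparisons of 2 groups and in the average genotype effect. For the average LPS effect only Vav1, Wasf2, Elmo1, Rac2 and Was were counted, and for the interaction only Wasf2. The other members' values for these effects, some near 0, were left out of the count. Of the 1216 values counted, 1108 kept their direction and their side of the threshold, 38 passed newly and 20 lost their call. The remaining 50 changed sign, and none of the 50 passed in the setting that changed its sign. Vav1 passed for the average LPS effect in every setting tried for it, each library left out included. Members that passed in WT-LPS against WT numbered 1, and 2 with limma on TPM at either pseudocount, 0 with the pair of groups fitted alone, and 4 and 3 in the settings chosen after seeing the data, the neuron covariate and the omission of WT-LPS replicate 1 with CPEB1-KO-LPS replicate 3; all genes numbered 4185, and 2592 with the pair of groups alone. For CPEB1-KO-LPS against CPEB1-KO, DESeq2 and the neuron covariate each called 1 member instead of 0, and DESeq2 called 1655 genes instead of 952. For the average LPS effect 2 members became 4 with the neuron covariate and 1 without both libraries. Between CPEB1-KO and WT, DESeq2 called 2 members and 519 genes, against 0 and 5; all genes were 11 with no filter, 9 with limma (pseudocount 1), 9 with the neuron covariate and 36 without both libraries. Between CPEB1-KO-LPS and WT-LPS, DESeq2 called 1 member and 90 genes, against 0 and 1; all genes were 3 with no filter, 4 and 9 with limma (pseudocounts 1 and 0.1), 7 with the neuron covariate and 1836 without both libraries, which called 5 members. For the average genotype effect, DESeq2 called 1 member and 108 genes, against 0 and 17, the strict filter 10 genes, and the fit without both libraries 6 members and 1396 genes. The interaction, 1 gene, became 0 with other size factors, the strict filter, limma at a pseudocount of 0.1 and the neuron covariate, 2 with limma at 1, 301 with DESeq2 and 48 without both libraries. The cause was not tested for any of these.

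The replicate numbers were not used to pair the libraries, and the labels do not say whether libraries of a number belong together. Over 18 same-numbered pairs the correlation of deviations ran from −0.344 to 0.378, with a median of −0.082, against 0.021 over the other pairs. A shared batch by number is not excluded by these values. With a replicate block, 0 members passed in WT-LPS against WT (Wasf2, adjusted p = 0.0559) and 1 for the average LPS effect, and all genes were 3 in CPEB1-KO against WT and 10 for the average genotype effect.

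Leaving out 1 library at a time gave 0 to 2 members and 2714 to 4724 genes in WT-LPS against WT, 355 to 1132 genes in CPEB1-KO-LPS against CPEB1-KO, 1 to 4 members for the average LPS effect, 0 to 1 members and 2 to 1292 genes in CPEB1-KO against WT, 0 to 1 members and 1 to 11 genes in CPEB1-KO-LPS against WT-LPS, 5 to 47 genes for the average genotype effect and 0 to 441 for the interaction. The Wasf2 difference in CPEB1-KO-LPS against WT-LPS passed without WT-LPS replicate 1 (adjusted p = 0.0492).

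Sign changes among the values counted, as log2 fold changes, were as follows. In WT-LPS against WT, Rac1 was 0.0030 with no filter, 0.32 with limma at either pseudocount and 0.11 with the neuron covariate; Dock1 was 0.30 and 0.34 with limma, 0.20 with the covariate and 0.22 without both libraries; Coro1a was 0.065 with the covariate. Leaving out libraries gave Rac1 −0.21 to 0.23, Rac2 −0.075 to 0.71, Cdc42 −0.088 to 0.26 and Dock1 −0.34 to 0.46. In CPEB1-KO-LPS against CPEB1-KO, Rac1 was −0.0081 with limma at either pseudocount, −0.028 with the covariate and −0.16 without both libraries, and Dock2 was −0.083 and −0.089, −0.53 and −0.77 in the same settings; without both libraries Cdc42 was −0.057, Was −0.068, Wasf2 −0.053 and Coro1a −0.071. Leaving out libraries gave Rac1 −0.14 to 0.16, Cdc42 −0.035 to 0.38, Dock2 −0.74 to 0.43, Was −0.048 to 0.89, Wasf2 −0.032 to 0.67 and Coro1a −0.050 to 0.55, the lowest of each without CPEB1-KO-LPS replicate 3. In CPEB1-KO against WT, limma at pseudocounts 1 and 0.1 gave Rac1 0.040 and 0.040, Cdc42 0.12 and 0.12, Elmo1 0.076 and 0.078 and Dock1 0.054 and 0.069; the covariate gave Dock1 0.13, Was 0.027 and Wasf2 0.076; and leaving out libraries gave Dock1 −0.64 to 0.077. In CPEB1-KO-LPS against WT-LPS it gave Coro1a −0.54 to 0.14. From expected counts the mean Rac2 share was 15.6% in CPEB1-KO-LPS and 15.5% in WT, against 11.9% and 11.7% from TPM. With 3 libraries a group and a depth of 109 expected counts at the low end, small differences of Dock1 could not be resolved.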

Other observations

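The genes whose log2 levels followed a member most closely over the 12 libraries were, as a description, Hcls1 (Pearson r = 0.983) for Rac2, Cndp2 (0.993) and the kinase gene Lyn (0.988) for Vav1, Adora3 (0.993) for Was, and Zfp36l1 (0.979) and Il6ra (0.975) for Wasf2, among 11417 genes compared. These libraries share their mix of cell types and the 4 groups, and no test was made. For Elmo1 and Dock2 the closest genes were Nrarp (0.934) and Lzic (0.897).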
